A study of Mus musculus with 69 samples.

Results

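The 5 subunits of the transcription factor NF-kB and 5 of the inhibitors and co-regulators that its activity induces were examined in histone-mark peak lists of mouse blood stem and progenitor cells. The subunits are encoded by Nfkb1, Nfkb2, Rel, Rela and Relb. The inhibitors are encoded by Nfkbia, Nfkbie, Nfkbiz, Tnfaip3 and Bcl3. The genes were taken by name, 10 of the 21887 protein-coding genes measured. No cut-off on a measured value was used, but earlier results of these data were known when they were chosen. Each was described by the peaks within 50 kb of its gene body on mm10, a stretch called its window here. In the GRCm38.p6 annotation the subunit genes lie at chr3:135584655-135691969 (Nfkb1), chr19:46300994-46312400 (Nfkb2), chr11:23736847-23770969 (Rel), chr19:5637442-5648134 (Rela) and chr7:19606217-19629438 (Relb). The inhibitor genes lie at chr12:55489409-55492647 (Nfkbia), chr17:45555700-45563169 (Nfkbie), chr16:55811375-55838954 (Nfkbiz), chr10:19000910-19015410 (Tnfaip3) and chr7:19808462-19822824 (Bcl3). Relb and Bcl3 are 179024 bases apart, so their windows do not overlap.

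NF-kB is held in the cytoplasm of resting cells by inhibitor proteins of the IkB family. Inflammatory signals such as interleukin-1 (IL-1), tumour necrosis factor and bacterial products activate IkB kinase, which marks the inhibitors for destruction and lets the subunits enter the nucleus. The subunits bind DNA as dimers at kB motifs and induce, among many other genes, their own inhibitors, so the response limits itself. In the blood system this pathway links inflammation and stress to the activation of stem cells and to myeloid output.

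The series profiled H3K4me1, a mark of enhancers, and H3K27ac, a mark of active enhancers and promoters, in 2 sorted blood cell types, haematopoietic stem cells (HSCs) and the haematopoietic progenitors below them (HPCs). Cells were fixed, and the precipitated chromatin was cut by the Tn5 transposase (ChIPmentation). The labels used here do not define the sort gates. Kmt2c encodes MLL3, an enzyme of enhancer H3K4 methylation, and its conditional allele was recombined by Vav-Cre, which is active in blood and endothelial cells from early development on. Controls are labelled wild type, with no word on Cre. Heterozygous mice were Kmt2c f/+; Vav-Cre and knockout mice were Kmt2c f/f; Vav-Cre, so if controls lack Cre, an effect of Cre and the loss of Kmt2c cannot be told apart. At 8 weeks, untreated HSCs and HPCs of the 3 genotypes were profiled for H3K4me1 with 3 libraries per group. The HSCs of 16-week mice, wild type or knockout, came after 3 injections at intervals of 3 weeks, either PBS or 5-fluorouracil (5FU) at 150 mg/kg, a drug that kills dividing cells. They were profiled for H3K27ac (3 libraries in each group) and H3K4me1 (3 to 6 libraries). The HPCs profiled for H3K27ac came from wild-type and knockout mice of 8 to 10 weeks given either PBS or IL-1 (0.5 µg daily) over 3 days, with 4 libraries in each group.

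The libraries of a group share 1 peak list, 18 lists in all, so there is no spread between replicates and no test between groups, and every difference below is one between pooled lists. The lists held 37002 to 134509 peaks over 33.4 to 116 Mb, and the widest was the H3K4me1 list of wild-type HSCs after 5FU, which combined 6 libraries of 2 library series while the other 3 H3K4me1 lists at 16 weeks covered 44.2 to 54.0 Mb. H3K27ac elements, meaning peaks merged where they overlapped or touched, averaged 548 to 713 bases in HSC lists and 939 to 1165 bases in HPC lists. In H3K4me1 at 8 weeks the cell labels went with their markers. All 8 HSC markers were covered less in HPCs in each genotype (median relative log2 ratios of −0.77, −0.78 and −0.89, a scale explained below), and all 7 progenitor markers were covered more (0.78, 0.99 and 1.04). Markers of other cells moved too, with 3 of 3 lymphoid and 4 of 4 mature lymphocyte markers covered more in HPCs and 2 to 4 of 4 stromal markers. The 4 mature markers summed to 14504 to 19900 covered bases in HSC lists and 27838 to 35604 in HPC lists, with Ms4a1 at 0 in wild-type and heterozygous HSCs. For comparison, 4 genes silent in blood (Alb, Ins2, Myh6 and Gfap) summed to 11859 to 16164 bases in HSC lists and 11397 to 15961 in HPC lists. In bulk chromatin a change in the mix of cells and a change of the mark within each cell cannot be told apart.

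RefSeq start sites could be matched for 7 of the 10 genes. The 250 bases before 7 of these starts are shown because the H3K27ac results turn on them: 4 lay in an element of every H3K27ac list and the other 3 in an element of every HPC list. Sequences are from RefSeq, GRCm38.p6, and are written 5′ to 3′ in the direction of transcription. Capitals mark matches, on either strand, to the canonical kB decamer (the degenerate consensus of NF-kB binding) and to the shorter forms GGAAATTCC and GGACTTTCC, and positions below count back from the start site. The windows are chr19:46304487-46304736 (plus strand) for Nfkb2, chr11:23770970-23771219 (minus) for Rel, chr19:5637291-5637540 (plus) for Rela, chr12:55492648-55492897 (minus) for Nfkbia, chr17:45555450-45555699 (plus) for Nfkbie, chr10:19015411-19015660 (minus) for Tnfaip3 and chr7:19822756-19823005 (minus) for Bcl3.
Nfkb2: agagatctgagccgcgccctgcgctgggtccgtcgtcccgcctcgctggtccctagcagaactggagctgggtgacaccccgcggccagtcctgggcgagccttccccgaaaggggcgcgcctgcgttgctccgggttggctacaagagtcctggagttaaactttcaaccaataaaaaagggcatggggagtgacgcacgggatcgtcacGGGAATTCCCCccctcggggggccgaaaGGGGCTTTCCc
Rel: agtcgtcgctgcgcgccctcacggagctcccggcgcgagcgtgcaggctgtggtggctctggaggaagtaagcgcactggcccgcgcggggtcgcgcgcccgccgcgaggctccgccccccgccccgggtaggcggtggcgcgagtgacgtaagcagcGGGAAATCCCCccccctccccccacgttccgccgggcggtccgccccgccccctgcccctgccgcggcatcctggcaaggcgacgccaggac
Rela: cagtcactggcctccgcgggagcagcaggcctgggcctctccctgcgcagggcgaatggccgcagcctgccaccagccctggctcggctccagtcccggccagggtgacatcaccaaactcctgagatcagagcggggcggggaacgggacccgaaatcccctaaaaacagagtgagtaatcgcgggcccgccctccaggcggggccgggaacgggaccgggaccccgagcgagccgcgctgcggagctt
Nfkbia: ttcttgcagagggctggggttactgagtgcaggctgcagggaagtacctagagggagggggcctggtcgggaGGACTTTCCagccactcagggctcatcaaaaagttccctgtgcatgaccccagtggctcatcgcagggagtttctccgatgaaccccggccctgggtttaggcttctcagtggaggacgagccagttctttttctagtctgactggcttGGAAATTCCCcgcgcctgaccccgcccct
Nfkbie: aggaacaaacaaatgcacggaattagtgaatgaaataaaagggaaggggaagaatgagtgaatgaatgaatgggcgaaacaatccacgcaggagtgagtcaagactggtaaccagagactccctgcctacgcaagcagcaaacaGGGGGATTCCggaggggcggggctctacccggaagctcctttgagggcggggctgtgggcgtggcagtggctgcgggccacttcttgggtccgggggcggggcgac
Tnfaip3: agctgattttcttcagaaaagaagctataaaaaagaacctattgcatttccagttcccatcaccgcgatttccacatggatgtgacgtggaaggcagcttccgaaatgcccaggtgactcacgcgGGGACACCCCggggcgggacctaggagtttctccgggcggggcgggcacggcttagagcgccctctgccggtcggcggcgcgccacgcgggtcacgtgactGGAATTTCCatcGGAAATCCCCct
Bcl3: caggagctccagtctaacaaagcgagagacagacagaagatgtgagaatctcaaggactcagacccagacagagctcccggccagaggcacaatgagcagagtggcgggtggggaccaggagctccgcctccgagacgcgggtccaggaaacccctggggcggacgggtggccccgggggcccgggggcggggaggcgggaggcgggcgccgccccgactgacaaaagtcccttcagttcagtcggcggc

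Matches to the canonical kB decamer stood in 5 of these 7 windows, against 7.91% of the windows of the same length before all 21263 protein-coding starts. In Nfkb2 they began at −39, −38 (overlapping the first) and −11, in Rel at −92 and −91 (overlapping), in Nfkbia at −29, in Nfkbie at −106 and in Tnfaip3 at −125 and −12. Nfkbia, which encodes IkBα, the inhibitor that is rapidly made again after activation, also held GGACTTTCC at −178 (0.292% of all windows). Its −29 match and the match of Tnfaip3 at −24, read on the other strand, contain GGAAATTCC (0.320% of all windows). No match was found in the windows of Rela and Bcl3, which says only that these letters are not in those 250 bases. A match is a string of letters and not a measured binding site.

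H3K27ac lay over the start sites of Nfkb2, Rel, Rela and Tnfaip3 in all 8 lists. That is 4 of the 10 member starts (7 genes, with 3 starts for Nfkb2 and 2 for Tnfaip3), against 26.8% of all starts. The element over the Rela start, which encodes the main activating subunit p65, belonged to the strongest of every list, with only 0.162% to 0.427% of peaks above it by −log10 p. The Rel start, of the subunit c-Rel, had 1.296% to 2.27% above it, the first Nfkb2 start 1.89% to 12.8% and the Tnfaip3 start 1.44% to 7.09%. Tnfaip3 encodes A20, an enzyme that edits ubiquitin chains and switches the pathway off. H3K4me1 did not cover these active starts in any of the 10 lists. The only member start within H3K4me1 elements was an internal start of Tnfaip3 (chr10, 19011963), covered in 10 of 10 H3K4me1 lists and in no H3K27ac list, while 2.01% to 8.67% of all starts lay in H3K4me1 elements.

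At 3 inhibitor genes the element over the start differed between the cell types. Nfkbie encodes IkBε, an inhibitor that acts later than IkBα. Its start lay in an element of 3759, 3760, 3576 and 3396 bases in the HPC lists of wild type after PBS, wild type after IL-1, knockout after PBS and knockout after IL-1, and in none in the 4 HSC lists. Bcl3, an IkB-like protein that binds p50 and p52 dimers in the nucleus, had 3620, 3508, 2982 and 3038 bases over its start in the same HPC lists and none in HSCs. At Nfkbia the element spanned 2338, 2425, 2759 and 2354 bases in HPCs, while in HSCs only wild type after 5FU (870 bases) and knockout after PBS (581 bases) had one. The other HSC lists had an element close by, 172 bases (wild type after PBS) and 30 bases (knockout after 5FU) from the start. The fold enrichment that the authors' peak caller gave the peaks over the Nfkbia start was 9.20 to 14.7 in HPCs and 3.99 and 5.30 in HSCs. Read depth is unknown, so it is also unknown whether these values can be compared between lists.

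Counted over starts, 3 of the 10 member starts lay in an element of all 4 HPC lists and of no HSC list (those of Nfkbie and Bcl3 and another start of Nfkb2 at chr19, 46305930), against 4.35% of all starts. None was the reverse, which held for 0.527% of all starts. The HSC lists were not empty there. Their nearest elements ended 124 to 666 bases from the Nfkbie start, 140, 144, 148 and 1164 bases from the Bcl3 start and 221 to 370 bases from that Nfkb2 start. When an element within 500 bases was counted as present, a setting chosen after seeing the data, no member start was left in the HPC-only class, which then held 1.05% of all starts. The HSC lists thus held elements that stopped short of these starts, and the HPC lists held 1 wide element across each. At the starts covered in all 8 lists the element was wider in every HPC list than in every HSC list for Nfkb2 (2385 to 2527 against 1162 to 1295 bases), Rel (4073 to 4293 against 2603 to 3028) and Tnfaip3 (2222 to 2801 against 1737 to 1879). For Rela the ranges met (2890 to 3737 and 2341 to 2891). These 3 of 4 stand against 42.0% of the 5689 starts of all genes covered in all 8 lists, and the mean element was wider in every HPC list than in every HSC list. The part of that list-wide width in the values of these genes was not tested.

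**Figure D1:**
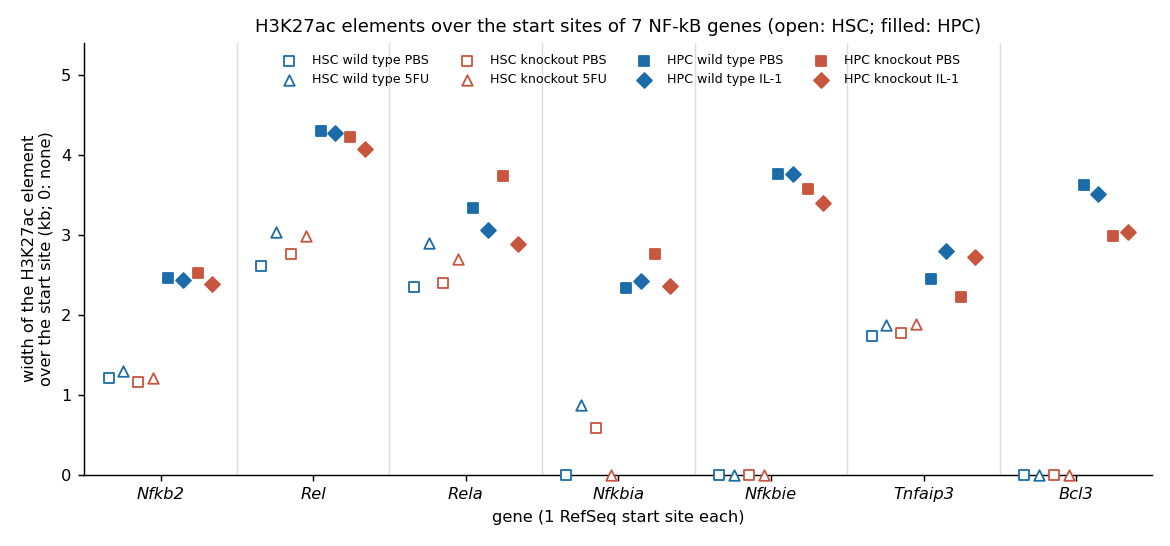
Width in kb of the H3K27ac element over 1 start site of each of 7 genes, 1 point per pooled list (open symbols HSC, filled symbols HPC, blue wild type, red knockout), with points at 0 where no element held the start. Filled points lie above all open points at Nfkb2, Rel, Nfkbia, Nfkbie, Tnfaip3 and Bcl3, and at Rela they overlap.

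**Figure D2:**
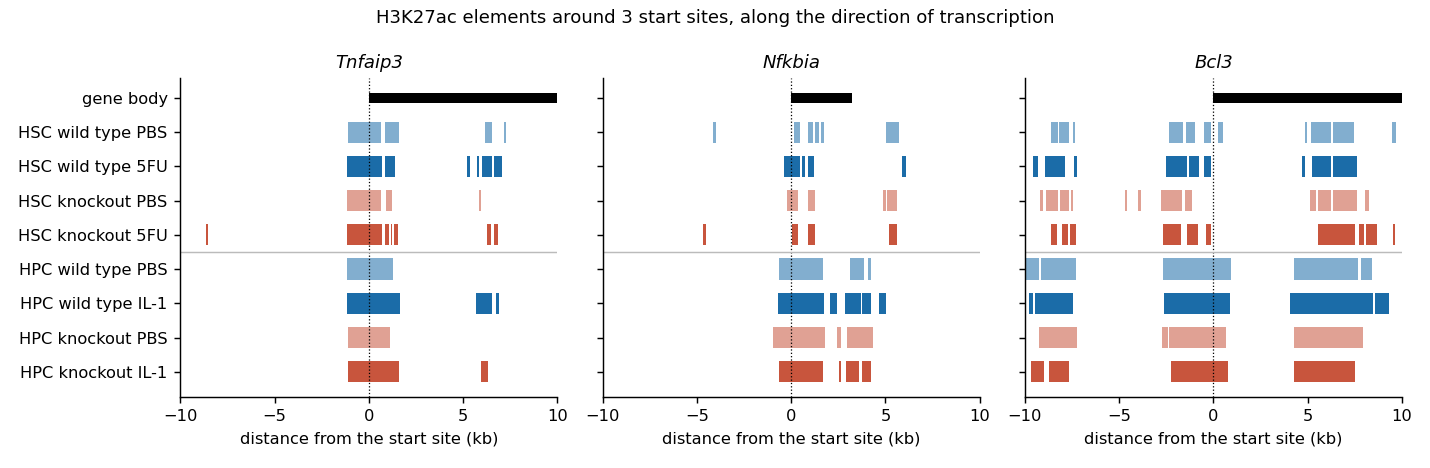
H3K27ac elements within 10 kb of the start sites of Tnfaip3, Nfkbia and Bcl3, by distance in kb along the direction of transcription, 1 row per pooled list, with the gene body in black and the start dotted. HSC rows show short separate elements around the starts of Nfkbia and Bcl3, and HPC rows show 1 element across each start.

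The amount of marked chromatin around the genes was compared as the share of the window covered, since the windows differ in length. For H3K27ac the medians over 8 lists ran from 12.7% (7.12 to 16.8) for Rela and 12.4% (9.44 to 15.2) for Nfkb1 through 9.27% for Relb, 8.38% for Nfkbia, 7.89% for Bcl3, 7.79% for Nfkbie, 7.48% for Nfkb2, 7.10% for Tnfaip3 and 6.65% for Nfkbiz to 3.96% (2.49 to 5.12) for Rel. The order pools the cell types and does not hold within each. Nfkb1 covered 10.7% to 15.2% in HSCs and 9.44% to 13.8% in HPCs, Rela 7.12% to 11.1% and 14.3% to 16.8%, and Nfkbie 4.27% to 5.0% and 10.6% to 13.1%, so its median matches neither cell type. Over all 8 lists neighbours in this order overlapped in range except the last pair, Nfkbiz (6.11 to 7.93) and Rel. For H3K4me1 the order was Nfkbie 22.7%, Nfkb1 22.02%, Nfkbia 20.9%, Nfkb2 19.3%, Bcl3 17.3%, Relb 14.8%, Rela 14.0%, Tnfaip3 12.3%, Nfkbiz 10.8% and Rel 4.59%, and all neighbours overlapped. Nfkb1, whose product p105 is cut to p50, had more covered H3K27ac bases than 99.0% of genes at its median, in the longest window of the 10, and Rel had more than 64.4%. The 10 windows together held 0.224% to 0.241% of all H3K27ac bases in HSC lists and 0.285% to 0.298% in HPC lists, so the 4 HPC lists lay above the 4 HSC lists. This share was not computed for other sets of genes. Among all genes, relative to the median gene, the HPC lists lay above without overlap at 30.5% and below at 18.3%. Peaks in these windows need not act on the named gene, because up to 8 other protein-coding genes reach into a window (Relb), and none into those of Nfkbia and Tnfaip3.

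**Figure D3:**
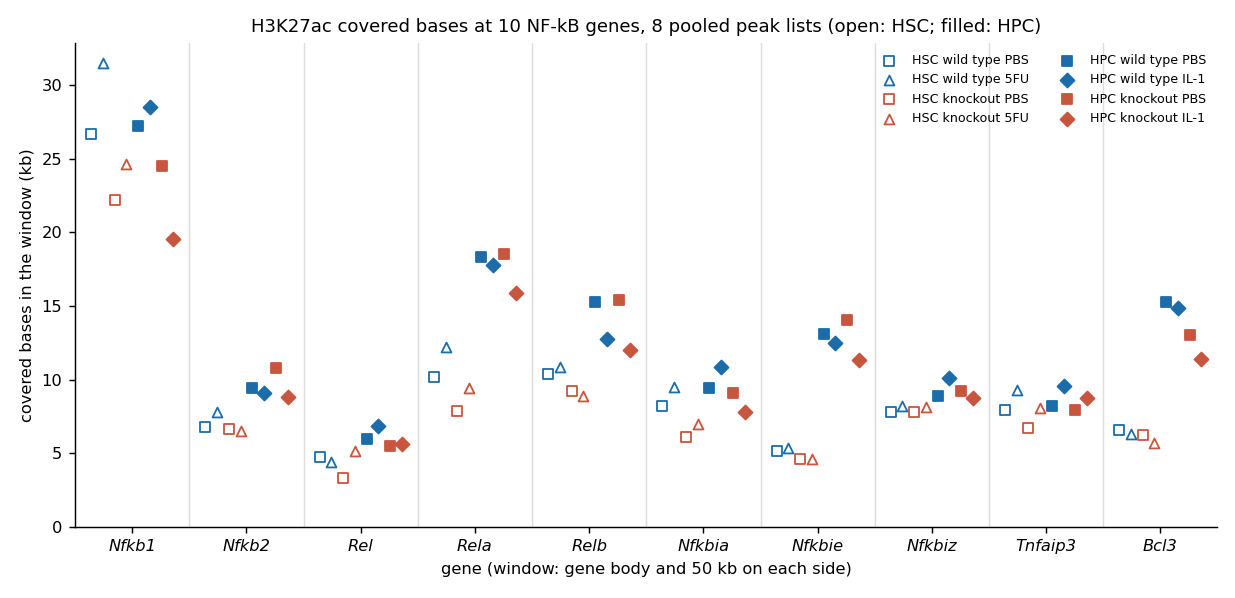
Bases covered by H3K27ac elements, in kb, in the window of each gene, 1 point per pooled list (open symbols HSC, filled symbols HPC, blue wild type, red knockout). At Nfkbie and Bcl3 the 4 HPC points lie far above the 4 HSC points, and at Tnfaip3 and Nfkb1 the cell types overlap.

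HPC lists held more H3K27ac than HSC lists around Nfkbie, Bcl3 and Rela. In the order wild type PBS, wild type 5FU, knockout PBS and knockout 5FU, Nfkbie had 5178, 5372, 4584 and 4626 covered bases in HSCs. In HPCs, in the order wild type PBS, wild type IL-1, knockout PBS and knockout IL-1, it had 13077, 12498, 14030 and 11363. Every HPC value exceeded every HSC value by more than the whole HSC range. Bcl3 had 6610, 6282, 6225 and 5666 bases in HSCs and 15286, 14862, 13050 and 11431 in HPCs, and Rela had 10164, 12240, 7879 and 9442 in HSCs and 18318, 17799, 18563 and 15871 in HPCs. Relative to the median gene of each list, the HPC median was 2.20-fold the HSC median for Nfkbie, 1.94-fold for Bcl3 and 1.65-fold for Rela. At least 1.5-fold more in HPCs was found for these 3 of 10 genes and for 13.5% of the 16204 genes measured, and no member was 1.5-fold lower, against 10.4%.

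The 4 HPC lists lay above the 4 HSC lists without overlap, relative to the median gene, at 5 of the 10 genes (Nfkb2, Rela, Relb, Nfkbie and Bcl3), against 30.5% of all genes, and below at none, against 18.3%. Nfkb2 (1.24-fold) and Relb (1.28-fold) encode the 2 subunits of the non-canonical branch, which answers to lymphotoxin and CD40. Nfkb2, Relb, Nfkbie and Bcl3 stayed above in all 5 alternatives in which this was computed, and Rela did not in every one. Around Nfkbia (1.1-fold), Nfkbiz (1.07-fold), Tnfaip3 (1.02-fold) and Nfkb1 (0.925-fold) the ranges overlapped, as they did for Rel (1.25-fold). The H3K27ac lists of the cell types also differ in age, treatment scheme and library set, and these cannot be told apart from the cell type. HSC markers summed to 156997 to 202900 H3K27ac bases in HSCs and 97330 to 125901 in HPCs (Tek at 0 in all 4 HPC lists), and mature lymphocyte markers to 7618 to 10657 and 9829 to 12365. Lymphoid markers summed to 5980 to 10913 bases in HSCs and 39026 to 51492 in HPCs, and progenitor markers to 32313 to 42065 and 46276 to 64363. The progenitor markers Ctsg and Ly6c2 were at 0 in all 4 HSC lists and in both wild-type HPC lists. Stromal markers overlapped, with 16556 to 41518 and 26538 to 47886. The genes silent in blood summed to 9122 to 11107 bases in HSCs and 7860 to 8481 in HPCs.

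For H3K4me1, the comparison of HPCs with HSCs at 8 weeks was made within 1 age and without treatment. Changes between 2 lists are given as the relative log2 ratio, the log2 ratio of covered bases after adding 1000 to both, minus that of the median gene, and a gene is called past the fold where it is at least 1.5-fold from the median gene. Rel had 3900, 5447 and 7917 covered bases in wild-type, heterozygous and knockout HSCs and 9170, 9570 and 10426 in HPCs. All HPC values were higher, by 0.80, 0.75 and 0.50 in the 3 genotypes. Nfkbiz, whose product IkBζ is induced by IL-1 and acts with p50 on late target genes, had 8087, 13275 and 14161 bases in HSCs and 15311, 17007 and 16851 in HPCs (0.59, 0.37 and 0.38). In both genes the gap between the cell types was widest in the wild type, where the HSC value was lowest. Higher past the fold were thus 2 of 10 members in wild type (9.84% of all genes), 1 in heterozygous mice (9.16%) and 0 in knockout (8.92%). Lower past the fold were 0 members in each, against 9.15%, 10.8% and 12.6% of genes. Without overlap, 3 of 10 members (Rel, Nfkbiz and Bcl3) lay above in all HPC lists, against 26.0% of genes, and 0 lay below, against 23.2%. With 10 kb windows Nfkbiz and Bcl3 were left above, Rel was not, and Tnfaip3 lay below. Bcl3 was thus higher in HPCs in both marks, with 17949, 19760 and 19719 H3K4me1 bases in HSCs and 27677, 24854 and 23310 in HPCs.

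Between wild-type HPCs and HSCs, 50 H3K4me1 elements of the windows were exclusive to HPCs and 30 to HSCs (34.2% and 28.7% of each list's elements over the genome), or 62.5% in HPCs (Wilson 95% interval 51.5 to 72.3, genome 52.9%). In heterozygous mice the counts were 59 and 53 (29.8% and 33.4%), or 52.7% (43.5 to 61.7, genome 45.7%), and in knockout 51 and 52 (27.5% and 36.7%), or 49.5% (40.1 to 59.0, genome 39.7%). Elements exclusive to either cell type were less common in the windows than over the genome: 25.1%, 28.4% and 23.6% of the members' HPC elements and 14.3%, 24.9% and 22.5% of their HSC elements in wild-type, heterozygous and knockout mice. The members' share in HPCs lay above the genome's because the HSC counts fell further below it than the HPC counts did. In wild type the share fell under 50%, to 27.9%, once both lists covered equally many bases.

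Few merged elements were found in every HPC list and never in HSCs. Of 263 H3K4me1 elements in the 10 windows, 65 were in every list (24.7%, 19.9 to 30.3, against 16.0% of the genome's elements), and of 139 H3K27ac elements 43 were (30.9%, 23.9 to 39.0, against 18.6%). The H3K4me1 share moved to 13.3% with a −log10 q of at least 2 and to 14.5% in bins of 200 bases, settings in which the genome's share was not computed. All these intervals cover counting error only. In H3K4me1, 3 elements were in all HPC lists and no HSC list (2.00% of the genome's elements), all in the window of Rel, and 0 were the reverse (0.538%). One of them, chr11:23687782-23688913, lies in the neighbouring gene Pus10, close to the edge of the window, and covered 649, 1016 and 1132 bases in wild-type, heterozygous and knockout HPCs. The others lie between genes, 47871 and 49896 bases from Rel, so all of them lie close to an edge of the window. In H3K27ac, 3 elements were in HPCs alone (2.16% of 139, against 1.71% of the genome's) and 0 in HSCs alone (3.55%). Counted in bins of 200 bases, HPCs alone held 10.2%, since a bin at the edge of a wider HPC element also counts. The element at chr7:19843838-19846345, between genes and 21013 bases above the higher end of Bcl3, covered 2370, 1988, 1787 and 1690 bases in the 4 HPC lists. The element at chr12:55488295-55489785 reaches over the 3′ end of Nfkbia with 925, 1319, 1387 and 1172 bases, and the last lies in Nfkbiz. All 3 were of middling strength, with 24.4% to 83.3% of the peaks of their lists stronger.

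**Figure D4:**
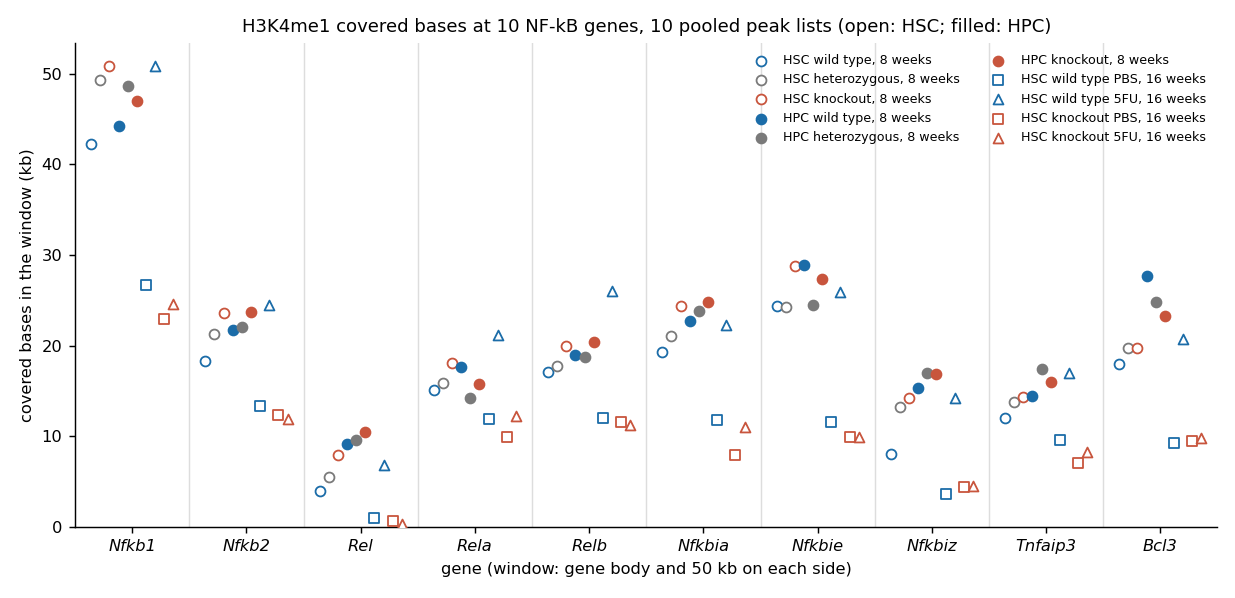
Bases covered by H3K4me1 elements, in kb, in the window of each gene, 1 point per pooled list of the 10 lists. Rel lies lowest in every list, and in each window the wild-type list after 5FU lies well above the other 3 lists of 16 weeks.

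Loss of Kmt2c went with small differences around these genes in untreated HSCs. Knockout against wild type at 8 weeks gave relative log2 ratios from −0.26 (Bcl3) to 0.48 (Rel) for H3K4me1, and heterozygous against wild type from −0.24 (Nfkbie) to 0.41 (Nfkbiz). No member was past the fold in either, while 4.86% of genes were higher and 1.01% lower in knockout, and 2.92% and 1.02% in heterozygous HSCs. Both comparisons share the wild-type list. Rel and Nfkbiz were the 2 members above the median gene in both, and the other 8 were below it in both. Before the median gene is subtracted, most windows gained bases, because the median gene itself stood at 0.24 in heterozygous and 0.39 in knockout HSCs. Tnfaip3, for example, had 11986, 13817 and 14277 bases in wild-type, heterozygous and knockout HSCs, a gain that was smaller than that of the median gene (−0.05 and −0.15). In HPCs the range was −0.25 (Rela) to 0.29 (Tnfaip3) for heterozygous and −0.23 (Bcl3) to 0.17 (Rel) for knockout mice. Again 0 members passed the fold, against 1.5% higher and 1.80% lower and 2.04% higher and 2.48% lower of all genes.

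Single elements differed between genotypes in the window of Nfkb2. The strongest element that knockout HSCs held and wild-type HSCs lacked in any window lay at chr19:46341793-46342290, between genes and 29392 bases above the higher end of Nfkb2, with a fold enrichment of 4.35 and only 10.6% of the list's peaks above it. The same stretch led in heterozygous HSCs (chr19:46341805-46342257, 4.15, 10.3% above). Over the union of all lists it covered 453 and 498 bases in heterozygous and knockout HSCs and 437 and 329 in heterozygous and knockout HPCs, and 0 in wild-type HSCs and HPCs. At 16 weeks it covered 305 and 286 bases in knockout HSCs after PBS and 5FU, 0 in wild type after PBS and 240 in wild type after 5FU. Of the 10 H3K4me1 lists it was present in all 6 of heterozygous or knockout mice and in 1 of 4 of wild type. Being in all 4 heterozygous and knockout lists of 8 weeks and in neither wild-type list was true of 2 of 263 elements in the windows and of 0.478% of the genome's elements. Both lay in the window of Nfkb2, 29376 and 33054 bases from the gene. The strongest element that wild-type HSCs held and heterozygous HSCs lacked was chr3:135718031-135718360, between genes and 26061 bases from Nfkb1 (fold enrichment 4.00, 10.3% above). It was not specific to wild type, since knockout HSCs held an overlapping element, and it lies in a merged stretch that all 10 H3K4me1 lists held in part.

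Counts of elements exclusive to 1 list followed the genome. In knockout against wild-type HSCs 68 elements of the windows were exclusive to knockout and 27 to wild type (35.8% and 15.9% of each list's elements over the genome), or 71.6% in knockout (61.8 to 79.7), and the genome had 72.0%. For heterozygous HSCs the counts were 59 and 37 (over the genome 31.6% and 18.7% of each list), or 61.5% (51.5 to 70.6, genome 64.4%). In knockout HPCs they were 48 and 37 (25.8% and 22.3% of each list), or 56.5% (45.9 to 66.5, genome 55.2%), and in heterozygous HPCs 40 and 35 (24.2% and 21.8%), or 53.3% (42.2 to 64.2, genome 54.2%). When both lists were limited to equal covered bases the HSC shares turned to 23.0% and 28.6%, so the direction of these counts moves with how much was called. Of the 20 elements in heterozygous and knockout but not wild-type HSCs (7.13% of the genome's elements), Nfkb1, Relb and Nfkbiz had 4 each, and 12 were in wild type alone (4.70%). In HPCs these counts were 9 (4.22%) and 18 (6.87%).

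Across the other comparisons, the strongest exclusive elements among the top 25% of their list lay in the windows of Bcl3, Nfkbiz, Nfkb1, Rela and Relb. In H3K4me1 at 8 weeks they were chr7:19832884-19833072 near Bcl3 in heterozygous HPCs (fold enrichment 3.24), against both wild-type HPCs and heterozygous HSCs, and chr16:55788126-55789273 near Nfkbiz in wild-type HPCs against HSCs (4.58). On the HSC side they were chr3:135699181-135699865 near Nfkb1 in heterozygous (3.56) and chr19:5638270-5638633 within Rela in knockout mice (3.88). In H3K27ac of HSCs they were chr7:19814105-19814660 within Bcl3 in knockout against wild type after 5FU (4.74), chr7:19664549-19665009 in Clptm1 near Relb in wild type after 5FU (4.80), against both knockout and PBS, and chr19:5648556-5649041, 421 bases from Rela, in knockout after 5FU against PBS (4.31). In H3K4me1 at 16 weeks both genotypes held one within Nfkb1 after PBS, chr3:135636656-135637152 in knockout (4.10) and chr3:135634762-135635160 in wild type (3.95). After 5FU, wild type held chr3:135691882-135692623 across the higher end of Nfkb1 (3.81) against knockout and chr7:19824549-19825560 near Bcl3 (3.55) against PBS. The one ranked highest within its list was chr7:19601296-19601794 in Clasrp near Relb, in knockout after 5FU against PBS (4.95, with 2.49% of peaks above it), and on the PBS side chr16:55804906-55805392 near Nfkbiz stood out (3.85). In the 4 comparisons of H3K27ac in HPCs no exclusive element reached the top 25%.

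H3K27ac was slightly lower at several members in the knockout. In HSCs after PBS, Nfkb1 had 26667 bases where Kmt2c was intact and 22174 in the knockout. The same pair was 31486 and 24636 after 5FU, 27218 and 24487 in HPCs after PBS and 28521 and 19575 after IL-1. The knockout value was the lower one in each pair, and relative to the median gene the differences were −0.10, −0.18, −0.20 and −0.43. Rela (−0.18, −0.18, −0.04 and −0.06), Nfkbia (−0.22, −0.24, −0.11 and −0.34) and Tnfaip3 (−0.05, −0.02, −0.10 and −0.03) were also below the median gene in all 4 comparisons, which share no list. These 4 of 10 members stand against 19.5% of genes, and 0 members were higher in all 4, against 17.2%. This count, chosen after seeing the data, was 1 with lists of equal covered bases, where only Rela was left, and 1 with peaks nearest to the member, where only Nfkb1 was left. No member passed the fold in any of the 4. The shares of genes higher and lower were 0.768% and 4.70% for HSCs after PBS, 0.655% and 5.08% after 5FU, 1.34% and 3.39% for HPCs after PBS and 0.764% and 3.34% after IL-1. In HSCs after PBS, 18 elements were exclusive to knockout and 38 to wild type (21.4% and 40% of each list over the genome), or 32.1% in knockout (21.4 to 45.2, genome 31.6%). After 5FU the counts were 22 and 50 (26.4% and 39.1%), or 30.6% (21.1 to 42.0, genome 40.1%). The members thus lost more than they gained, as the genome did. In HPCs the counts were 11 and 15 after PBS (17.7% and 26.3%), or 42.3% (25.5 to 61.1, genome 37.6%), and 11 and 25 after IL-1 (14.3% and 30.4%), or 30.6% (18 to 46.9, genome 31.3%). In HSCs, 3 elements were in both wild-type lists and no knockout list (4.01% of the genome's), 2 of them around Nfkbia, and 0 were the reverse (1.1%). With lists of equal covered bases the HSC shares turned to 88.9% and 86.8% and that of HPCs after IL-1 to 92.9%.

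After IL-1, a ligand of the pathway, H3K27ac in HPCs was higher at Tnfaip3 in both genotypes. Its window had 8180 bases after PBS and 9594 after IL-1 in wild type, and 7918 and 8741 in knockout. The gain was 0.23 and 0.30 relative to the median gene, with ranges of 0.16 to 0.50 and 0.13 to 0.48 over the alternatives. Both gains lay within the 5th to 95th percentile of all genes (−0.39 to 0.35 in wild type and −0.41 to 0.32 in knockout). The element over its start widened from 2453 to 2801 bases in wild type and from 2222 to 2726 in knockout. Its downstream edge moved from 1.29 to 1.65 kb past the start in wild type and from 1.13 to 1.61 kb in knockout, and its upstream edge stood at −1.16 and −1.15 kb in the former and −1.09 and −1.12 kb in the latter. An element inside the gene at chr10:19008867-19009708 covered 842 bases after IL-1 in the wild type and 346 in the knockout, with 0 after PBS in both. That element was weak (fold enrichment 3.26 and 3.76, with 65.7% and 53.0% of peaks stronger), and HSC lists held it without IL-1, with 379, 616, 105 and 232 bases.

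Rel and Nfkbiz were the other members above the median gene after IL-1 in both genotypes. Rel had 5946 and 6862 bases after PBS and IL-1 in wild type and 5493 and 5603 in knockout (0.20 and 0.20). An element in the gene, chr11:23762539-23762838, covered 300 and 210 bases after IL-1 in wild type and knockout and 0 in all other H3K27ac lists, with a fold enrichment of 3.17 and 3.89. Nfkbiz went from 8881 to 10116 bases in the wild type and from 9201 to 8778 in the knockout (0.19 and 0.11), so its covered bases were fewer after IL-1 in knockout, by less than those of the median gene, and without the subtraction the ratio is −0.06. The 3 of 10 members higher in both genotypes stand against 31.1% of genes, which is close to the background, and the same 3 were higher in all 6 alternatives. Lower in both were 5 of 10 (Nfkb2, Rela, Relb, Nfkbie and Bcl3), against 30.9%, led by Relb with 15240 and 12776 bases in wild type and 15401 and 12017 in knockout (−0.22 and −0.16). Under the alternatives that count ran from 1 to 5, and some of these members changed direction. With peaks nearest to the member, Nfkb2, Relb, Nfkbie and Bcl3 were higher in both genotypes. Nfkbie and Bcl3 were higher in both with 10 kb windows, and Bcl3 with a −log10 q of at least 2. These counts were chosen after seeing the data.

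Nfkbia, the textbook early target, did not move alike in both genotypes after IL-1: it had 9421 and 10856 bases after PBS and IL-1 in wild type (0.20) and 9063 and 7773 in knockout (−0.03). That difference was not tested, and it rests on the settings. Nfkbia was higher after IL-1 in both genotypes once list sizes were matched by covered bases, and also when only peaks nearest to it were counted. Nfkbia was not higher in both under the other alternatives in which this was computed. No member passed the fold after IL-1 in either genotype, against 1.35% of genes higher and 1.91% lower in wild type and 1.09% and 2.06% in knockout. In wild type 21 elements were exclusive to IL-1 and 18 to PBS (21.8% and 22.6% of each list over the genome), or 53.8% (38.6 to 68.4, genome 48.6%). In knockout the counts were 15 and 22 (17.9% and 25.8%), or 40.5% (26.3 to 56.5, genome 42.3%). The knockout share turned to 100% with equal covered bases and to 57.9% with peaks nearest to the member, and was 21.1% with a −log10 q of at least 2. The wild-type share turned to 38.5% with that q. Elements in both IL-1 lists and no PBS list numbered 3 (Tnfaip3, Rel and Relb; 1.26% of the genome's), and the reverse 5 (1.33%), 1 each at Nfkb2, Relb, Nfkbia, Nfkbie and Bcl3.

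After 5FU, H3K27ac in HSCs was higher at Rela and Tnfaip3 in both genotypes. Rela had 10164 and 12240 bases after PBS and 5FU in wild type and 7879 and 9442 in knockout (0.19 and 0.18), and Tnfaip3 had 7910 and 9267 and 6746 and 8069 (0.15 and 0.18). At both genes the 5FU value was higher, by a like amount in each genotype. Nfkb1 (0.17 and 0.10), Nfkbia (0.13 and 0.11) and Nfkbiz (close to 0 in both) shared that direction, so 5 of 10 members were higher in both, against 28.9% of genes, and Nfkb1, Rela and Tnfaip3 were so in all alternatives. Relb, Nfkbie and Bcl3 were lower in both, 3 of 10 against 29.1%. That direction rests on the settings. With a −log10 q of at least 2 Relb and Bcl3 were higher in both genotypes, and with peaks nearest to the member Relb was. No member was lower in both under either setting. Inside Tnfaip3 the element chr10:19008338-19008778 covered 441 and 184 bases after 5FU in wild type and knockout and 0 after PBS. It lies next to the element that both IL-1 lists held. The wild-type IL-1 list of HPCs also had a peak within it, 6.73 to 6.92 kb past the start. In wild-type HSCs after PBS, peaks lay on both sides of this stretch (6.63 to 7.07 kb), at 6.16 to 6.54 and 7.17 to 7.29 kb. The element was weak, with 50.6% to 72.7% of peaks stronger. Elements in both 5FU lists and no PBS list were 2 of 139 (1.44%), against 2.93% of the genome's. No member passed the fold, against 1.19% and 0.863% of genes higher and lower in wild type and 1.33% and 1.03% in knockout. In wild type 45 elements were exclusive to 5FU and 23 to PBS (34.9% and 25.5% of each list over the genome), or 66.2% (54.3 to 76.3, genome 60.7%). In knockout the counts were 41 and 22 (39.5% and 24.2%), or 65.1% (52.8 to 75.7, genome 68.0%), and with equal covered bases these shares turned to 45.8% and 49.0%.

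H3K4me1 after 5FU was led by Rel, in a comparison of lists of very unequal size. The window of Rel had 959 bases in wild type after PBS, 6866 after 5FU, and 638 and 342 in knockout. Only the large wild-type 5FU list stood out. Its ratio to wild-type PBS was 0.99 and that of knockout to wild type after 5FU was −1.35, and with lists of equal covered bases both turned, to −0.96 and 0.35. Nfkbiz, with 3646 and 14188 bases in wild type, was the other member past the fold after 5FU (0.69). Higher past the fold in wild type were thus 2 of 10, against 7.46% of genes, with 0 lower against 2.35%. In knockout after 5FU against PBS 0 passed, against 3.26% and 5.11%. In knockout against wild type 0 passed after PBS, against 3.84% and 5.48%. After 5FU 1 of 10 was lower, Rel, against 10.4%, and 0 were higher, against 3.81%. In wild type 119 elements were exclusive to 5FU and 2 to PBS (52.9% and 3.97% of each list over the genome), or 98.3% (94.2 to 99.5, genome 95.3%). In knockout the counts were 38 and 30 (28.6% and 32.1%), or 55.9% (44.1 to 67.1, genome 45.4%). Knockout against wild type gave 30 and 45 after PBS (24.9% and 33.9%), or 40% (29.7 to 51.3, genome 40.7%), and 1 and 131 after 5FU (2.14% and 60.0%), or 0.758% (0.134 to 4.17, genome 2.02%). The 2 lopsided shares both involve the wild-type 5FU list, and with equal covered bases both turned, to 0% and 100%.

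The plot of all 19 comparisons sets these genes against the range of all genes. Of 190 values, 6 passed the fold, all in H3K4me1, and all of Rel or Nfkbiz, the 2 windows with the lowest median share of H3K4me1 over the 10 lists. Over all genes the shares past the fold in a comparison ran from 0.655% to 9.84% higher and from 0.863% to 12.6% lower. The count of 6 rests on the settings: it was 12 with a −log10 q of at least 2, 0 with 5000 added bases and 27 when the median gene was not subtracted. The remaining values lay within 1.5-fold of the median gene.

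**Figure D5:**
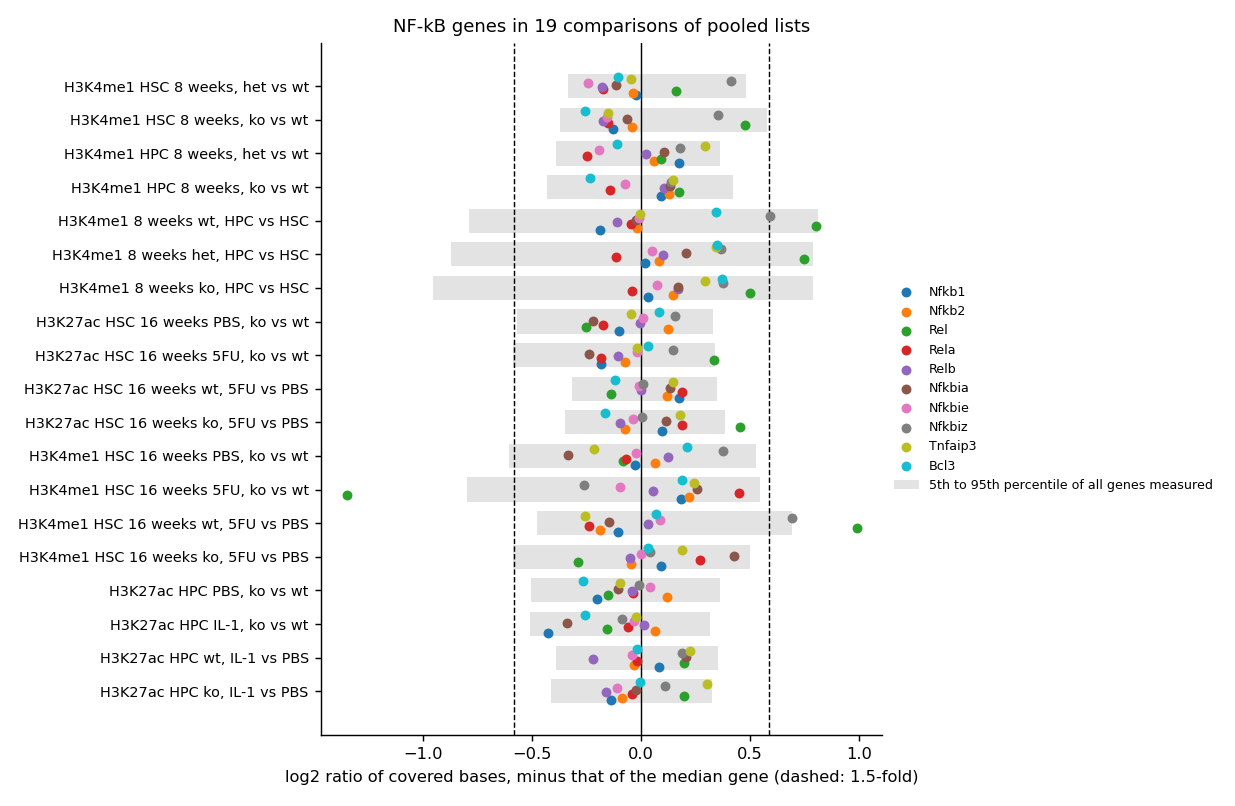
Relative log2 ratios of the 10 genes in 19 comparisons of pooled lists, with the range from the 5th to the 95th percentile of all genes measured as grey bars and 1.5-fold as dashed lines. Rel (green) and Nfkbiz (grey points) alone cross the dashed lines, in the H3K4me1 comparisons.

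The rest of the pathway was described with 50 genes of receptors and adaptors, kinases, other inhibitors and target genes, of which 45 to 49 were measured in a comparison. The shares of all genes past the fold, given above for each comparison, stand beside each count. In knockout against wild-type HSCs at 8 weeks 3 of 49 were higher past the fold, 0 lower (4.86% and 1.01% of all genes), in heterozygous HSCs 2 and 0 (2.92% and 1.02%), in knockout HPCs 2 and 1 (2.04% and 2.48%) and in heterozygous HPCs 0 and 0. These are small counts near the background. Among them were 2 subunits of IkB kinase, the enzyme that releases NF-kB. Ikbkb, a catalytic subunit, had 1636, 4510 and 7433 H3K4me1 bases in wild-type, heterozygous and knockout HSCs (0.83 and 1.29 against wild type), and 5435 in wild-type and 9852 in knockout HPCs (0.76). Ikbkg, the regulatory subunit, had 2052, 5713 and 5047 bases in HSCs (0.90 and 0.60) and 4295 and 6963 in wild-type and knockout HPCs (0.59). The other catalytic subunit, Chuk, and the 4 other kinase genes of the list were not past the fold in these comparisons. At 16 weeks the direction was not kept: after PBS Ikbkb had 2122 bases in wild-type HSCs and 1288 in knockout HSCs, and Ikbkg had 4048 in wild type and 0 in knockout after 5FU (−1.13). The remaining genes were the target Il1b, higher in knockout HSCs (3169 and 7479 bases, 0.64), and Irak1, a kinase downstream of the IL-1 receptor, lower in knockout HPCs (1213 and 232 bases, −0.84). Ikbkg and Irak1 lie on chromosome X, and the labels used here do not state the sex of the mice.

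Between HPCs and HSCs at 8 weeks, 2 of 49 were higher and 2 lower past the fold in wild type (9.84% and 9.15% of all genes), 3 and 2 in heterozygous mice (9.16% and 10.8%) and 4 and 4 in knockout (8.92% and 12.6%), no more than the background. Il1r2, the decoy receptor of IL-1, was higher in HPCs in all 3 genotypes (0.93, 1.22 and 1.03), with 5037 bases in wild-type HSCs and 12713 in HPCs. Il1r1, the signalling receptor, passed the fold in heterozygous (0.74) and knockout mice (0.96), and Il1rap, its partner chain, went the other way in knockout (7343 bases in HSCs and 3859 in HPCs, −0.64). Higher too were Ikbkb in wild type (1.03), the stress gene Gadd45b in heterozygous and knockout mice (0.63 and 0.86) and Otulin in knockout (0.76). Lower were Irak1 in heterozygous and knockout mice (−0.77 and −0.81), the bacterial sensor Tlr4 (−0.61) and the growth factor Csf1 (−0.62) in wild type, the chemokine Ccl2 in heterozygous mice (−0.74), and in knockout the chemokines Cxcl1 (−0.60) and Cxcl2 (−0.64), which have 5868 bases each in HPCs.

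In the H3K27ac comparisons few pathway genes passed. After IL-1 0 of 47 did in either genotype, and 0 of 47 did between genotypes in HPCs after PBS. In knockout against wild-type HPCs after IL-1, 2 of 47 were lower, against 3.34% of all genes. They were Otulin, which removes linear ubiquitin chains (21987 bases in wild-type and 10737 in knockout HPCs, −0.87), and Tnip2, a partner of A20 (9575 and 4665, −0.80). In HSCs after PBS, Csf1 was lower in the knockout (10214 and 4821 bases, −0.79), 1 of 47 against 4.70%, and after 5FU 0 of 48 passed. Between 5FU and PBS 1 of 48 was higher in wild type and 2 in knockout, against 1.19% and 1.33%. Ccl2 was higher in both genotypes (from 585 to 1787 bases in the wild type and from 513 to 1994 in the knockout, 0.76 and 0.94), at levels near the 1000 bases added to each value, and Otulin in knockout (3880 and 7157 bases, 0.69).

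In H3K4me1 at 16 weeks the comparisons with the large wild-type 5FU list gave 5 of 49 higher and 1 lower for 5FU against PBS (7.46% and 2.35% of all genes) and 1 and 4 for knockout against wild type (3.81% and 10.4%). Higher after 5FU in wild type were Irak1 (1.06), Tab1 (0.69), Ikbkb (0.60), Traf3 (0.60) and Tab2 (0.59), adaptors and kinases of the pathway, and lower was Il1rn, the IL-1 receptor antagonist (−0.62). Lower in knockout after 5FU were Ikbkg, Irak1 (−0.90), Tlr2 (−0.89) and the cytokine gene Il6 (−0.82), and higher was Csf1 (0.63). In knockout after 5FU against PBS 4 of 45 were higher, Ccl2 (1.03), Cd40 (0.82), Tab2 (0.79) and Ikbkb (0.64), and 1 lower, Il1b (−0.87), against 3.26% and 5.11%. In knockout against wild type after PBS 2 of 46 were higher, Il1b (0.96) and Il1rap (0.60), and 3 lower, Cd40 (−0.92), Il6 (−0.77) and Ccl2 (−0.60), against 3.84% and 5.48%.

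H3K27ac elements of the 10 windows overlapped H3K4me1 elements of the same 16-week HSC group in 63.5% (wild type PBS, 54.4 to 71.7), 82.4% (wild type 5FU, 75.0 to 88.0), 63.5% (knockout PBS, 53.9 to 72.1) and 61.5% (knockout 5FU, 52.6 to 69.6) of cases. Over the genome these shares were 55.3%, 77.9%, 51.2% and 49.4%, so the members lay above the genome in each group, and the value was highest where the large wild-type 5FU list of H3K4me1 was used. Across the 18 lists, the genes whose covered bases followed the mean of the members most closely, among 11965 genes at least 200 kb away, were Irf2bp2 (Pearson's r 0.976), Iqcd (0.972) and 4931406B18Rik (0.969). Covered bases were taken here as log2 after adding 1000, minus the list's median gene, centred within each mark. The members did not share 1 profile: r to the mean of the other members ran from −0.18 (Nfkb1) and −0.02 (Rel) to 0.80 (Nfkbie) and 0.92 (Bcl3). These values describe lists of 2 marks and 2 cell types that share their size effects.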

How the data were processed

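ChIPmentation peak lists were analysed, 1 for each of 18 groups (63 libraries). A further 6 input libraries had no list analysed here. Novoalign and MACS2 on mm10 (GRCm38) are named in the submitters' processing notes, without versions or settings. How libraries were pooled and peaks filtered is not stated. The deposited fold enrichment of each peak, a linear ratio, and the deposited −log10 p and −log10 q came from the authors' peak caller. The −log10 p and −log10 q were used only to rank or filter peaks within a list. Fold enrichment was quoted for named peaks and entered no call. Read depth is unknown, so the precision of a value is too, and Wilson intervals cover counting error only.

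Peaks were merged into elements and summed within 50 kb of each RefSeq (GRCm38.p6) gene body. Ratios took 1000 added bases and the median of all genes for which 1 of the 2 lists covered 1000 bases or more. Calls were set at 1.5-fold. Elements were exclusive where no base overlapped. With pooled lists no test was possible. The members, the 50 pathway genes and the marker lists were chosen with earlier results of these data known. All 10 members are accounted for. Named in the text are members past the fold, the strongest exclusive elements among the top 25% of a list by −log10 p, and pathway genes past the fold. Other elements were chosen after their values were seen.

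Alternatives were a −log10 q of at least 2, equal numbers of peaks, equal covered bases, windows of 10 kb, peaks nearest to the member, 5000 added bases, no subtraction of the median gene, bins of 200 bases and an overlap of 50%. Python 3.11.15, numpy 2.4.6, scipy 1.17.1 and matplotlib 3.10.9 were used. The scripts were tested on simulated peaks.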

Additional observations from a re-analysis of the deposited data

Results flagged for a closer look

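Rel moved in opposite directions after 5FU in the 2 genotypes, in both marks. For H3K27ac in HSCs its relative log2 ratio of 5FU to PBS was −0.14 in wild type (4752 bases after PBS, 4428 after 5FU) and 0.45 in knockout (3339 and 5139), a difference of −0.59. For H3K4me1 it was 0.99 in wild type (959 and 6866 bases) and −0.29 in knockout (638 and 342), a difference of 1.28. With 1 pooled list per group neither difference was tested. The opposite signs rest on the settings: the wild-type H3K27ac value was 0.13 with a −log10 q of at least 2, while the knockout value stayed positive in all 7 alternatives, and the wild-type H3K4me1 value was −0.96 with equal covered bases, the sign of the knockout. The marks differ in which genotype was higher, and the H3K4me1 value rests on the wild-type 5FU list of 6 libraries.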

How the results depend on the processing

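No paired analysis was possible because each group has 1 pooled list without replicate values, and for the same reason no replicate could be left out. Depth is unknown, so a missing peak does not show that a mark is absent. Over the 190 relative log2 ratios, the sign was kept in 160 with −log10 q of at least 2, 175 with equal numbers of peaks, 140 with equal covered bases, 143 with 10 kb windows, 132 with peaks nearest to the member, 172 with 5000 added bases and 135 without subtraction of the median gene. Of values past 1.5-fold, 6 with the settings of the report, there were 12 with −log10 q of at least 2, 2 with 10 kb windows, 10 with nearest peaks, 0 with 5000 added bases and 27 without the subtraction. With equal covered bases Rel reversed in H3K4me1, to 0.35 for knockout against wild type after 5FU and to −0.96 for 5FU against PBS in wild type. The cause of the changes below was not tested.

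Shares of exclusive elements in the first-named list moved most with equal covered bases. Reversed were H3K4me1 in heterozygous (28.6%) and knockout HSCs (23.0%) against wild type at 8 weeks, wild-type HPCs against HSCs (27.9%), and 16-week knockout against wild type after 5FU (100%) and wild-type 5FU against PBS (0%). Reversed too were H3K27ac in knockout against wild type in HSCs after PBS (88.9%) and 5FU (86.8%) and in HPCs after IL-1 (92.9%), and 5FU against PBS in wild type (45.8%) and knockout (49.0%). Knockout HPCs against HSCs moved to 66.3%, 16-week H3K4me1 knockout against wild type after PBS to 68.9%, and IL-1 against PBS in knockout to 100%, also past 50%. With −log10 q of at least 2 the H3K27ac shares were 5.41% for knockout against wild type after 5FU, 81.1% and 44.8% for 5FU against PBS in wild type and knockout (the latter reversed), 12.5% for knockout against wild type after IL-1, and 38.5% and 21.1% for IL-1 against PBS in wild type and knockout. The H3K4me1 shares at 16 weeks were then 53.6% and 0% for knockout against wild type after PBS and 5FU, and 100% for wild-type 5FU against PBS. With equal numbers of peaks they were 50% for H3K27ac 5FU against PBS in knockout, 18.97% for H3K4me1 knockout against wild type after 5FU and 83.6% for wild-type 5FU against PBS. With 10 kb windows they were 51.2% and 40.4% for HPCs against HSCs in wild type and heterozygous mice and 100% for wild-type H3K4me1 5FU against PBS. With nearest peaks IL-1 against PBS gave 72.0% in wild type and 57.9% in knockout.

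The share of H3K4me1 elements in every list was 13.3% with −log10 q of at least 2 and 14.5% in bins of 200 bases. In both 5FU and no PBS list it was 3.61% and 3.69%, and in both wild-type lists of 16 weeks alone 1.61% with the stricter q. H3K27ac elements in all HPC lists alone made up 10.2% of bins, and those of both 5FU lists in HSCs and of both knockout lists in HPCs 0% with the stricter q.

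Counts of members with 1 direction in all comparisons of a kind also moved. Lower in knockout were 1 with equal covered bases, 2 with 10 kb windows and 1 with nearest peaks. Higher after IL-1 were 5, 5 and 8 with these 3 settings, and lower 2 with the stricter q, 2 with 10 kb windows and 1 with nearest peaks. After 5FU, 3 were higher with 10 kb windows, and 0 lower with the stricter q and with nearest peaks. For H3K4me1, 5 members lay above in HPCs without overlap with equal covered bases.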
